A study of Mus musculus with 6 samples.

Results

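Growth factors that macrophages secrete were examined in peritoneal macrophages (PEMs) with and without the gene of Tim-4, a receptor for phosphatidylserine on dying cells. The members were taken by gene symbol: *Areg*, *Ereg*, *Hbegf* and *Tgfa*, *Pdgfa* and *Pdgfb*, *Tgfb1* and *Inhba*, and *Igf1*. All 9 were found among the 15415 genes of the deposited table, and 8 of them were among the 9030 genes with a mean of at least 1 FPKM in one group, which were tested. FPKM is the number of reads of a gene per kilobase of its length, scaled to the depth of its library. *Tgfa* stayed below this level. *Areg* and *Ereg* passed it through the control group only and *Pdgfa* through the knockout group only.

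RNA was sequenced in 6 libraries. The knockout group (3 libraries) carried LysM-Cre together with the floxed allele, Tim-4 fl/fl, and the control group (3 libraries) the floxed allele without Cre, so that loss of Tim-4 and presence of Cre cannot be told apart in any result below. Cre is expressed here from *Lyz2*, the lysozyme gene of myeloid cells, which include neutrophils as well as macrophages. The methods describe male C57BL/6J mice of 6 to 8 weeks injected with starch, from whose peritoneal cavity PEMs were then washed out. The treatment entry is LPS in every library, and PEMs are described as stimulated in culture (LPS at 1 μg/ml, 3.5 hours), but not whether the sequenced cells were those. The groups follow the sample titles, because the genotype entries name them the other way round. Whether each library came from its own mouse is not given, so p-values measure the spread between these libraries only.

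The libraries held 36170767 to 42217558 reads on the listed genes. *Timd4*, the gene of Tim-4 (Entrez 276891), measured 0.333, 0.394 and 0.246 FPKM in knockout libraries 1 to 3 compared with 19.5, 12.0 and 1.19 FPKM in control libraries 1 to 3, which fits the titles and not the genotype entries. The value is for the whole gene and not for its deleted part. *Lyz2* measured 41.4, 4656 and 106 FPKM in the knockout libraries, against 7090, 7171 and 8482 FPKM in the controls. Knockout library 2 by *Lyz2* and control library 3 by *Timd4* thus stood apart from their groups, and calls that changed without them are given below. *Adgre1*, which encodes the macrophage marker F4/80, lay between 235 and 364 FPKM in all 6 libraries, and 0 of 7 macrophage markers passed the test (4 at an unadjusted p below 0.05, and 0 with voom, a model of the recovered reads). Among these, *Csf1r* (0.624 of the control mean) and *Cd14* (0.608) were lower and *Cd68* (1.51) higher in every knockout library than in every control, and they were named after their values were seen. *Lyz2*, from which Cre is expressed, is also in this list and was lower in every knockout library (0.211).

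The EGF family ligands, to which amphiregulin, epiregulin, HB-EGF and TGF-α belong, are made as membrane-anchored precursors, are cut from the cell surface by metalloproteases such as ADAM17, and activate EGF receptors on epithelial, stromal and smooth muscle cells. PDGF chains act on PDGF receptors of mesenchymal cells. TGF-β1 is secreted in a latent form that has to be released before it can signal through SMAD proteins, as activin A, the dimer of the *Inhba* product, also does, and IGF-1 is a trophic factor that tissue macrophages supply during repair.

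The promoter of *Areg* is shown because *Areg* had the largest fold change among the members and because of a cAMP response element in it, the palindrome to which CREB binds. The sequence is from RefSeq (GRCm38.p6, chr5:91139349-91139598, plus strand) and holds the 250 bases before the gene start, with the element, TGACGTCA, in capitals at positions -61 to -54. TATAAA lies at positions -31 to -26.
Areg: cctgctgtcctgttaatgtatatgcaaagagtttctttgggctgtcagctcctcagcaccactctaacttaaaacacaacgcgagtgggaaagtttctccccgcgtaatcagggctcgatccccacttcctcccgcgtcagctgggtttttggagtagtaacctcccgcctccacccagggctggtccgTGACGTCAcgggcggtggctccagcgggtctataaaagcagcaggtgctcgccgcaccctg
TGACGTCA reads the same on both strands and was present in 508 of 32851 promoters of this length (1.55%), and TATAAA, searched on both strands, in 12.4%. Among the members, 6 had a promoter in the RefSeq table, and the element was found in that of *Areg* only. These motifs were picked after the values of *Areg* were seen. Of 237 tested genes with the element, 9 were called lower and 2 higher in the knockout libraries (3.8% lower, beside 4.5% of the 7313 tested genes with a promoter), a share near that of all genes.

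Of the 8 members tested, *Hbegf* rose and *Areg* and *Ereg* fell in the knockout libraries at an adjusted p below 0.05. The other 5 did not pass. The 3 calls are 37.5% of the members tested, beside 7.31% of all tested genes, and they divide into 1 higher, beside 2.57%, and 2 lower, beside 4.74%. The members were chosen with earlier results of these data known, so these shares are described and not tested. In 4 members of 9 (*Areg*, *Ereg*, *Hbegf* and *Pdgfa*) every knockout library lay on one side of every control library, which was so in 34.1% of all tested genes. Since 3 of these 4 passed the filter on low values through one group, a difference between the groups was in part a condition of their being tested. The median log2 fold change, knockout minus control, was 0.047 over the members tested and -0.111 over all tested genes. In limma 0 members passed without knockout library 1, without knockout library 2 or without control library 2, fits in which 0.332%, 0.698% and 0.0886% of all tested genes were called. In each of them 4 members had an unadjusted p below 0.05, and the log2 fold change of *Areg* was -1.77, -1.60 and -1.57.

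**Figure D1:**
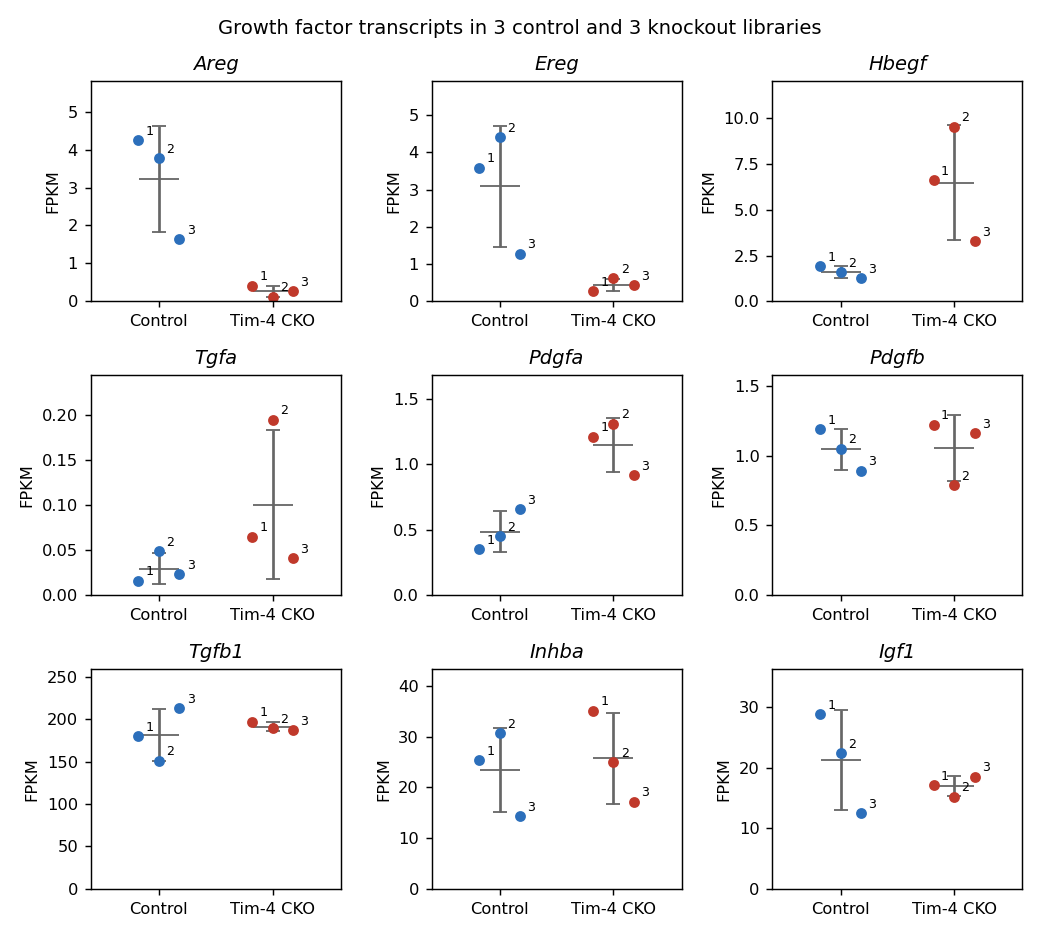
Level of each of the 9 growth factor genes in FPKM (linear axis from 0, a separate scale for each gene) in the 3 knockout and 3 control libraries, each point being a library marked by its number, with a horizontal line for the group mean and error bars of 1 SD (n = 3). The groups lie apart for Areg, Ereg, Hbegf and Pdgfa, and they overlap for the other 5.

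*Areg* encodes amphiregulin, an EGF family ligand of tissue repair (Entrez 11839). It measured 0.411, 0.117 and 0.261 FPKM in knockout libraries 1 to 3 compared with 4.25, 3.78 and 1.64 FPKM in control libraries 1 to 3. These values come from 21, 6 and 13 reads against 204, 179 and 72. All knockout libraries were below all control libraries, and control library 3 was the lowest of its group. The group means were 0.263 ± 0.147 and 3.22 ± 1.39 FPKM (SD, n = 3 each), a 12.3-fold difference. On the log2(FPKM + 1) scale, which makes the change of a low gene smaller, *Areg* fell by 1.69 (standard error 0.265, 95% confidence interval -2.31 to -1.07, adjusted p = 0.0177 from limma). The call was lost without knockout library 1 (adjusted p = 0.0712), knockout library 2 (0.0819) or control library 2 (0.101), and without control library 3 the adjusted p was 0.000732. The log2 fold change was larger with a pseudocount of 0.1 (-3.17, adjusted p = 0.0135) and with voom (-3.46, 0.043). In bulk RNA, fewer cells of a type and less RNA per cell cannot be told apart, here and in the results that follow.

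*Ereg* encodes epiregulin, which binds EGFR and ERBB4 (Entrez 13874), and its gene lies next to *Areg*. Its levels were 0.276, 0.618 and 0.425 FPKM in the knockout libraries and 3.58, 4.40 and 1.28 FPKM in the control libraries, from 48, 108 and 72 against 584, 709 and 192 reads. The groups were again apart, with control library 3 once more the lowest control. Means were 0.440 ± 0.172 and 3.09 ± 1.62 FPKM (SD, n = 3 each), which is a 7.02-fold difference, and *Ereg* fell by 1.42 on the log2 scale (standard error 0.311, 95% confidence interval -2.15 to -0.69, adjusted p = 0.0396 from limma). This call was near the threshold. Of the 6 fits that each leave out 1 library, it held only in the one without control library 3 (adjusted p = 0.00132), and in the other 5 the adjusted p was 0.064 to 0.152. It also failed when libraries were rescaled by their median ratio (log2 fold change -1.36, adjusted p = 0.0546), with voom on recovered reads (-2.54, 0.0776) and without a filter on low values (0.0742).

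*Hbegf*, which encodes the heparin-binding ligand of EGFR and ERBB4 (Entrez 15200), moved the other way. It measured 6.62, 9.53 and 3.29 FPKM in knockout libraries 1 to 3 compared with 1.93, 1.59 and 1.25 FPKM in control libraries 1 to 3. The lowest knockout library was above the highest control, and knockout library 2 was the highest. Means were 6.48 ± 3.12 and 1.59 ± 0.343 FPKM (SD, n = 3 each), 4.08-fold apart, and *Hbegf* rose by 1.45 on the log2 scale (standard error 0.313, 95% confidence interval 0.71 to 2.18, adjusted p = 0.0383 from limma). The call was lost without knockout library 1 (adjusted p = 0.147), knockout library 2 (log2 fold change 1.15, 0.124) or control library 2 (0.151), with voom (2.06, 0.0646) and without a filter on low values (0.075).

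*Tgfa*, the gene of TGF-α (Entrez 21802), was close to the limit of detection. It had 13, 39 and 8 reads in the knockout libraries and 3, 9 and 4 in the controls, or 0.0651, 0.195 and 0.0412 against 0.016, 0.0487 and 0.0233 FPKM. Knockout library 2 was the highest, and the groups overlapped. The means of 0.1 and 0.0293 FPKM had a ratio of 3.42. *Tgfa* was not among the genes tested, and in the fit of all listed genes its log2 fold change was 0.09 (adjusted p = 0.33 from limma). It came to 0.56 when the pseudocount was 0.1 instead of 1 (adjusted p = 0.269) and to 1.64 with voom (0.245).

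Added up, the 4 EGF family ligands came to similar totals in the groups but in a different make-up. The sum was 7.37, 10.5 and 4.02 FPKM in the knockout libraries and 9.78, 9.82 and 4.19 FPKM in the control libraries, with full overlap. *Hbegf* made up 89.8%, 91.1% and 81.9% of this sum in the knockout libraries and 19.7%, 16.2% and 29.7% in the controls. *Areg* made up 5.58%, 1.12% and 6.5% against 43.5%, 38.5% and 39.1%. The share of *Ereg* was 3.74%, 5.91% and 10.6% against 36.6%, 44.8% and 30.6%. In control libraries *Areg* and *Ereg* thus gave most of the EGF family RNA, and in knockout libraries *Hbegf* did. Control library 3 had the lowest sum of the controls and the highest share of *Hbegf* among them.

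**Figure D2:**
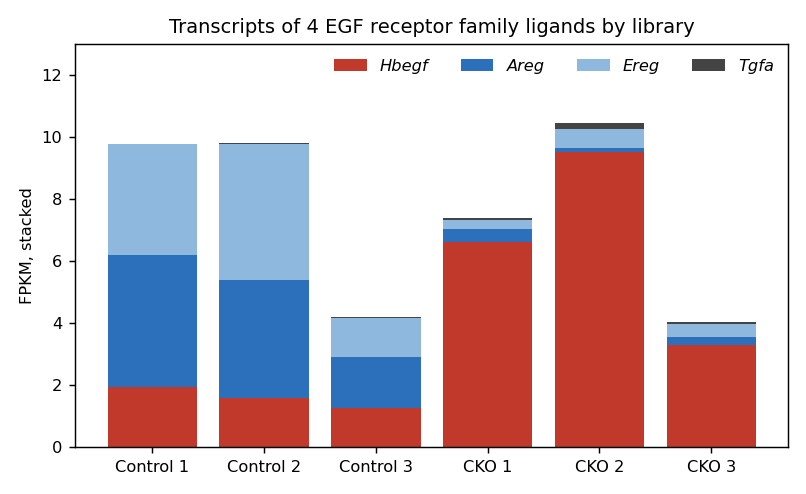
Stacked bars of FPKM (axis from 0) of Hbegf, Areg, Ereg and Tgfa in each of the 6 libraries. Hbegf takes 81.9% to 91.1% of the bar in the knockout libraries and 16.2% to 29.7% in the control libraries, while the bar heights overlap.

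Neither of the PDGF chain genes passed the test. *Pdgfa*, which encodes the A chain (Entrez 18590), measured 1.21, 1.31 and 0.916 FPKM in the knockout libraries, against 0.349, 0.448 and 0.656 FPKM in the controls. The groups were apart, with control library 3 the nearest to the knockout libraries. Means were 1.14 ± 0.204 and 0.484 ± 0.157 FPKM (SD, n = 3 each), a ratio of 2.36, and the log2 fold change of 0.53 (standard error 0.138, 95% confidence interval 0.21 to 0.86) had an adjusted p of 0.0611 from limma, short of the threshold. It passed where only genes with 10 or more reads in each library were kept (0.0384), after rescaling (log2 fold change 0.60, adjusted p = 0.0447), with voom (1.41, 0.0357) and without control library 3 (0.61, 0.0299).

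*Pdgfb*, which encodes the B chain (Entrez 18591), measured 1.22, 0.787 and 1.16 FPKM in the knockout libraries, against 1.19, 1.05 and 0.891 FPKM in the controls, with full overlap. Its log2 fold change was 0.003 (95% confidence interval -0.32 to 0.33, adjusted p = 0.992 from limma). The ratio of *Pdgfa* to *Pdgfb* was 0.991, 1.66 and 0.788 in the knockout libraries and 0.292, 0.424 and 0.736 in the controls. The 2 groups of ratios do not overlap, though knockout library 3 and control library 3 lie close together.

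*Tgfb1* (Entrez 21803), the gene of TGF-β1, was the most abundant member in both groups. It measured 197, 189 and 187 FPKM in the knockout libraries, against 180, 151 and 213 FPKM in the controls, or 191 ± 5.46 and 181 ± 30.9 FPKM (SD, n = 3 each). The knockout values lay within the range of the controls, and the log2 fold change was 0.09 (95% confidence interval -0.27 to 0.45, adjusted p = 0.728 from limma). *Inhba*, the activin βA chain (Entrez 16323), measured 35.1, 24.9 and 17.2 FPKM against 25.3, 30.6 and 14.3 FPKM. It varied more within the groups (SD 8.98 and 8.31 FPKM) than between their means (25.7 and 23.4 FPKM), and its log2 fold change was 0.14 (95% confidence interval -0.64 to 0.92, adjusted p = 0.815 from limma).

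*Igf1* (Entrez 16000) measured 17.1, 15.2 and 18.5 FPKM in the knockout libraries, against 28.8, 22.4 and 12.5 FPKM in the controls. Control library 3 was below all knockout libraries while the other controls were above them. The means were 16.9 ± 1.64 and 21.2 ± 8.24 FPKM (SD, n = 3 each), with a log2 fold change of -0.24 (95% confidence interval -0.90 to 0.42, adjusted p = 0.61 from limma), which was -0.56 (adjusted p = 0.058) without control library 3. The intervals of *Igf1* and *Inhba* were wider than those of *Tgfb1* and *Pdgfb*. That of *Inhba* takes in larger changes in either direction. That of *Igf1* takes in a larger fall, but not a larger rise than that of *Tgfb1*.

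**Figure D3:**
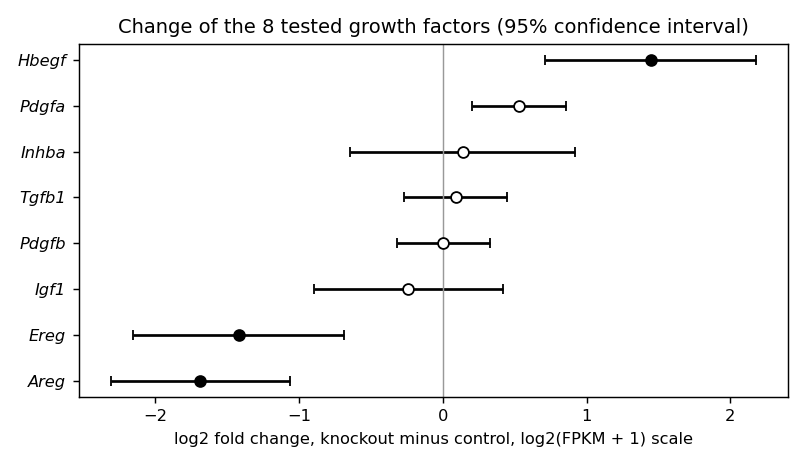
Log2 fold change, knockout minus control, on the log2(FPKM + 1) scale for the 8 members tested, with bars for the 95% confidence interval from limma. Areg and Ereg lie below 0 and Hbegf above 0 with an adjusted p below 0.05, and the interval of Pdgfa (0.21 to 0.86) is above 0 without passing after adjustment.

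The median over all tested genes was -0.111 with FPKM as deposited and 0.012 once the libraries were scaled to a common median ratio. The directions of *Areg*, *Ereg*, *Hbegf* and *Pdgfa* held under both scalings. On the rescaled values, the log2 fold changes were -1.62 for *Areg*, -1.36 for *Ereg*, 1.55 for *Hbegf*, 0.60 for *Pdgfa*, 0.07 for *Pdgfb*, 0.24 for *Tgfb1*, 0.28 for *Inhba* and -0.10 for *Igf1*. On this scale *Areg*, *Hbegf* and *Pdgfa* passed, and *Ereg* and the last 4 did not, whereas with the replicate number as a block as well *Ereg* passed (adjusted p = 0.0377) and *Pdgfa* did not (0.0708).

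By level, since FPKM is per length, *Tgfb1* came first in both groups, followed by *Inhba* and *Igf1*, whose ranges over the libraries overlapped. In the control libraries *Areg*, *Ereg* and *Hbegf* came next, each overlapping its neighbour in this order, and then *Pdgfb*, *Pdgfa* and *Tgfa*, each apart from the one before. In the knockout libraries *Hbegf* came after them, with neighbours on neither side in its range, *Pdgfa* and *Pdgfb* overlapped, and *Ereg*, *Areg* and *Tgfa* came last with overlapping ranges.

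Summed marker RNA of B cells, mast cells and large peritoneal macrophages was lower in the knockout libraries, as *Areg* and *Ereg* were. B cell markers were lower in the knockout libraries for 5 of the 5 tested (of 6 in the list), among them *Cd79a* and *Cd79b*, and 1 of 5 passed with voom. Their summed level was 2.78 to 5.52 FPKM in the knockout libraries and 27.5 to 115 FPKM in the control libraries, with control library 3 the lowest control as it was for *Areg* and *Ereg*. Mast cell markers were lower for 5 of 5 tested of 6 (4 with the replicate block), with sums of 1.89 to 2.27 against 38.2 to 49.3 FPKM. All of these 5, and 4 of the 5 B cell markers, reached the filter through the control group only. *Fcer1a*, the α chain of the IgE receptor, measured 0, 0.023 and 0 FPKM in the knockout libraries. Control library 3 was the highest control in the mast cell sum, while it was the lowest for *Areg* and *Ereg*. Of 4 tested markers of large peritoneal macrophages, the resident population that carries Tim-4, 3 were lower (2 with voom), 1 of the 3 having reached the filter through the control group only. The summed level of the list of 6, which includes *Timd4* itself, was 8.13 to 17.0 against 66.8 to 136 FPKM. Most of this sum was *Cd5l* (means of 8.41 and 78.3 FPKM). Of the markers too low to test, *Gata6* overlapped between the groups, and *Garnl3* was lower in every knockout library. Of the group 2 innate lymphoid cell list, *Il1rl1*, which reached the filter through the control group only, was lower and *Il7r* was not called, with 2 of 6 tested, and the sums of 50.3 to 66.8 and 23.1 to 76.1 FPKM, almost all *Il7r*, overlapped. Of the other 4, all too low to test, *Gata3* and *Il5* were apart between the groups with the knockout libraries lower, and *Rora* and *Il13* overlapped.

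As a share of the control mean, the knockout mean was 8.16% for *Areg* and 14.2% for *Ereg*. For the summed markers it was 5.8% in B cells, 4.9% in mast cells and 11.1% in large peritoneal macrophages (mostly *Cd5l*). The part of these cells in the lower *Areg* and *Ereg* was not tested. Beside *Hbegf*, markers of mesothelial cells and fibroblasts had sums of 13.1, 37.3 and 16.4 FPKM in the knockout libraries and 2.15, 6.49 and 13.9 FPKM in the controls. Of the 5 tested of the 10 markers 0 passed in limma (3 at an unadjusted p below 0.05, and 0 with voom), while 3 did in the fit with the replicate block. All 5 had positive log2 fold changes, but 4 of them had reached the filter through the knockout group only. This sum was highest in knockout library 2, as were *Hbegf* and *Pdgfa*, and its part in their levels was not tested.

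**Figure D4:**
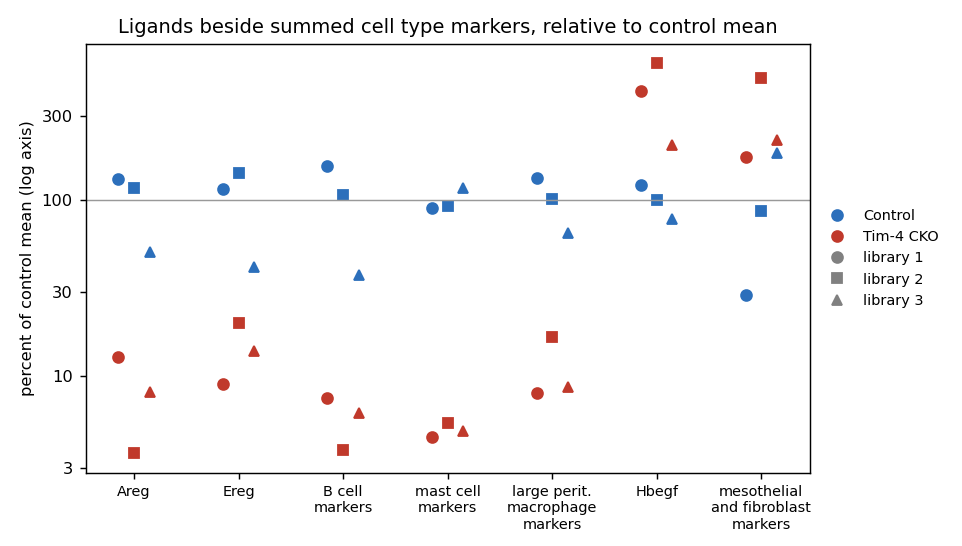
Level in each library as a percentage of the control mean (log axis) for Areg, Ereg and Hbegf and for the summed markers of B cells, mast cells, large peritoneal macrophages, and mesothelial cells with fibroblasts. In the knockout libraries Areg and Ereg lie between 3.63% and 20.0%, in the region of the first 3 marker sums, and Hbegf lies between 207% and 600%.

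The tested genes most like each member over the 6 libraries were ranked by the root mean square difference of log2(FPKM + 1) values after centring, for the members whose highest and lowest library differed by at least 1 on this scale. For *Areg* they were *H2-Ob* (0.0661), *Ptprcap* (0.128) and *Rabgap1l* (0.134). For *Ereg* they were *Pax5* (0.145), a transcription factor of B cells that is also in the marker list above, *Gimap1* (0.16) and *Bank1* (0.178), a B cell scaffold protein. All genes named here for *Areg* and *Ereg* reached the filter through the control group only. To rank as alike they had to share the difference between the groups, and a common cell source was not tested. For *Hbegf* they were *Cd83* (0.103), an activation marker of antigen-presenting cells, *Gm41145* (0.18) and *Glipr2* (0.195). *Cd83* measured 46.8, 58.8 and 27.6 FPKM in the knockout libraries, against 18.0, 17.3 and 12.4 FPKM in the controls, so its libraries stood in the same order as those of *Hbegf*.

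For *Igf1* the nearest were *Smchd1* (0.0704), *Il27ra* (0.087) and *Slco3a1* (0.11), all with control library 1 highest and control library 3 lowest. For *Inhba* they were *LOC118567760* (0.15), *Tra2a* (0.188) and *Zc3h7a* (0.19). *Pdgfa*, *Pdgfb* and *Tgfb1* varied by less than 1.

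*Ereg* and *Areg* are neighbours on mouse chromosome 5, in the order *Cxcl1*, *Cxcl2*, *Mthfd2l*, *Epgn*, *Ereg*, *Areg* in GRCm38.p6, and these neighbours were looked at after the values of both genes were seen. *Cxcl1*, a neutrophil chemokine, measured 958, 1152 and 1544 FPKM in the knockout libraries, against 2935, 3227 and 2231 FPKM in the controls and had a log2 fold change of -1.21, called lower (standard error 0.22, adjusted p = 0.0254 in limma). *Cxcl2*, a chemokine of the same kind, measured 4361, 3345 and 4593 against 7240, 8588 and 8460 FPKM and fell by 0.99 (adjusted p = 0.0197). Both were far more abundant than *Areg* and *Ereg*, and in both the groups were apart. Without knockout library 2 the adjusted p was 0.11 for *Cxcl1* and 0.0779 for *Cxcl2*. *Mthfd2l*, a mitochondrial folate enzyme, lies between these pairs and overlapped between the groups (log2 fold change -0.49, adjusted p = 0.163). *Epgn*, the EGF family ligand epigen, had at most 10 reads in any library and was not tested.

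The wider pathways were followed in 102 partner genes in 6 lists by role, also chosen with earlier results of these data known. Of these genes, 92 were in the table and 53 were tested. The test was passed by 9 of these 53 (17.0%, beside 7.31% of all tested genes), 4 higher and 5 lower, and the median log2 fold change of the 53 was -0.018. Of the 9, *Gdf3*, *Cd109*, *Ltbp1* and *Smad7* reached the filter of 1 FPKM through one group only, so that a difference was in part a condition of their being tested. The count was 0 without knockout library 1, knockout library 2 or control library 2 (21, 22 and 19 at an unadjusted p below 0.05) and 17 without control library 3, where 30, 63, 8 and 1278 of all tested genes were called. Without knockout library 2 the adjusted p of the 9 genes was 0.0573 to 0.175, and without control library 3 each of the 9 passed. None of the 16 partner genes that the naming rule takes, which are those called and the 2 of each list with the largest change, turned direction in any fit.

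Among 6 tested ligands outside the members, *Gdf3*, a TGF-β family ligand, was the one called. It measured 2.31, 3.33 and 1.79 FPKM in the knockout libraries, against 0.254, 0.527 and 0.66 FPKM in the controls, without overlap, and rose by 1.22 on the log2 scale (standard error 0.195, adjusted p = 0.0193 from limma). *Vegfa*, the vascular growth factor, overlapped widely (log2 fold change -0.85, adjusted p = 0.368), with control library 3 at 24.0 FPKM and the other libraries between 3.31 and 10.1 FPKM.

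None of 8 tested receptor genes passed in limma (5 at an unadjusted p below 0.05), and 1 passed with voom. *Pdgfra*, the receptor for PDGF chains on fibroblasts, which is also in the list of mesothelial cell and fibroblast markers, measured 0.592, 2.13 and 0.921 FPKM in the knockout libraries, against 0.022, 0.103 and 0.21 FPKM in the controls (log2 fold change 0.94, adjusted p = 0.0624, and 0.0476 with the replicate number as a block). *Acvr2a*, an activin receptor, measured 0.88, 0.996 and 1.34 against 1.83, 3.22 and 2.15 FPKM (log2 fold change -0.70, adjusted p = 0.0605). In both the groups were apart. *Egfr*, the receptor of all 4 EGF family members, was named after its values were seen and lay between 0.117 and 0.57 FPKM, below the level tested.

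Of the 15 tested genes that release, activate or process the ligands, 5 were called, 2 higher and 3 lower, beside 7.31% of all tested genes, and 3 were called with voom. The list also holds uncalled genes that act on latent TGF-β or its precursor, such as *Itgav* (log2 fold change 0.21, adjusted p = 0.454), *Lrrc32* (-0.36, 0.174) and *Furin* (0.91, 0.0781, and 0.0332 with the replicate number as a block), which were named after their values were seen. *Itgb8*, the β chain of an integrin that activates latent TGF-β, measured 1.44, 0.819 and 1.95 FPKM in the knockout libraries, against 7.50, 10.9 and 5.43 FPKM in the controls and fell by 1.88 on the log2 scale (standard error 0.267, adjusted p = 0.0132 from limma). *Ltbp1*, which binds latent TGF-β to the matrix, measured 0.149, 0.227 and 0.306 against 5.17, 3.68 and 1.26 FPKM and fell by 1.72 (standard error 0.340, adjusted p = 0.0316, and 0.0562 with voom). Both genes were apart between the groups, and control library 3 was the lowest control in each.

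*Thbs1*, or thrombospondin 1, a matrix protein that can activate latent TGF-β, measured 101, 103 and 189 against 257, 273 and 277 FPKM and fell by 1.10 (standard error 0.245, adjusted p = 0.0426, and 0.052 with voom). *Ltbp3*, another latent TGF-β binding protein, rose by 0.80 from 1.96 ± 0.405 in the controls to 4.15 ± 0.522 FPKM (SD, n = 3 each, adjusted p = 0.0274). *Nrros*, which tethers latent TGF-β on myeloid cells, rose by 0.82 from 7.47 ± 1.05 to 14.0 ± 2.48 FPKM (SD, n = 3 each, adjusted p = 0.0332). The RNA of *Tgfb1* itself, given above, overlapped between the groups. *Adam17*, the protease that sheds the EGF family ligands, was named after its values were seen and measured 98.4, 93.7 and 99.9 against 71.0, 96.9 and 124 FPKM (log2 fold change 0.04, adjusted p = 0.92).

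**Figure D5:**
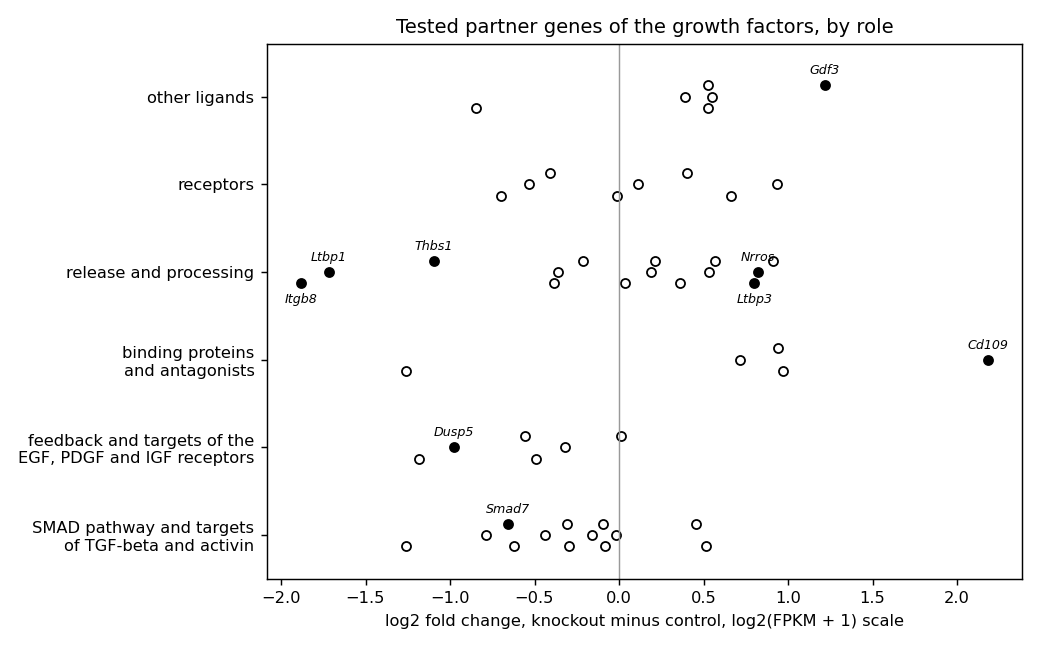
Log2 fold change, knockout minus control, of the tested partner genes by list, on the log2(FPKM + 1) scale, with each gene a point and the called genes marked and named. Of 53 genes, 4 lie above 0 and 5 below 0 with an adjusted p below 0.05, and 5 of these 9 belong to release and processing.

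Of 5 tested binding proteins and antagonists, *Cd109*, a co-receptor that restrains TGF-β signalling, was called (2 of the 5 with the block). It measured 7.88, 10.7 and 4.42 FPKM in the knockout libraries, against 0.281, 0.814 and 1.58 FPKM in the controls, without overlap, and rose by 2.18 on the log2 scale (standard error 0.342, adjusted p = 0.0174 from limma). *Fst*, or follistatin, which binds activin, measured 0.427, 0.523 and 0.388 against 5.13, 3.09 and 0.659 FPKM, and did not pass (log2 fold change -1.26, adjusted p = 0.114), except without control library 3 (-1.79, 0.00263).

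Of 6 tested genes listed as feedback and targets of the EGF, PDGF and IGF receptors, whose signalling was not measured, 1 passed. This was *Dusp5*, a phosphatase of nuclear ERK, which measured 4.19, 3.15 and 2.88 against 7.55, 6.89 and 8.48 FPKM and fell by 0.98 (standard error 0.155, adjusted p = 0.0185 from limma). *Dusp4*, a related phosphatase, did not pass (log2 fold change -1.18, adjusted p = 0.0579, and 0.0277 with the replicate number as a block). Among 13 tested SMAD pathway genes, *Smad7*, the inhibitory SMAD that TGF-β induces, was the one called. It measured 0.552, 0.304 and 0.374 against 1.02, 1.42 and 1.23 FPKM and fell by 0.66 (standard error 0.132, adjusted p = 0.0326, and 0.0523 with the block). *Pmepa1*, a TGF-β target, measured 1.37, 1.28 and 0.947 against 4.36, 4.02 and 1.03 FPKM. Control library 3 lay within the knockout range, and the gene did not pass (log2 fold change -0.79, adjusted p = 0.204) except without that library (-1.24, 0.00333).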

How the data were processed

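RNA of 6 PEM libraries was sequenced, and 1 table of all genes was deposited. The authors deposited FPKM per gene and library. Columns of signal, which the authors made by averaging reads within a group after division by DESeq2 size factors, were also in the table. The deposited fold change (a ratio), its log2 value, p-value and q-value are the authors' own comparison and were not used. The submitters' processing notes name the build mm9, while aligner and counting are not given in the sources used here, so RefSeq tables of GRCm38.p6 served only for names, gene order and the promoter shown.

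Whole reads were recovered from FPKM and group means (100% of values within 0.05 of a whole number in each library). Under R 4.3.3, limma 3.58.1 (lmFit, then eBayes with trend) was run on log2(FPKM + 1) over genes with a mean of at least 1 FPKM in one group, with group as the only term, Benjamini-Hochberg adjustment over all 9030 and a threshold of 0.05. A model for read counts had been foreseen in case counts were deposited. A two-sided exact permutation test of 3 against 3 cannot go below 0.1, so none was run. The fit was also run on simulated reads with 200 genes changed 4-fold. Of the changed genes, 124 were tested, 124 were called in the right direction, and 6 unchanged genes were called. The simulation set the same spread for every gene. It does not show how the fit does on genes that vary as *Areg*, *Ereg* and *Hbegf* do.

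The members and lists were chosen with earlier results of these data known. Named were the members, *Timd4*, *Lyz2*, partner genes past the threshold, the 2 largest changes in each list, and the 3 genes most like each member whose libraries spanned at least 1. Others were named after their values were seen, and 1 gene that the rule takes is not reported here. Partner lists were other ligands, receptors, release and processing, binding proteins and antagonists, receptor feedback and targets, and the SMAD pathway. Marker lists covered macrophages, their large and small peritoneal subsets, B and T lymphocytes, group 2 innate lymphoid cells, neutrophils, mast cells, eosinophils, platelets, and mesothelial cells with fibroblasts.

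Correlations between same-numbered libraries, taken on deviations from the group means, were 0.109, 0.109 and 0.304 (-0.332 to 0.291 between other numbers). The 0.291, of knockout library 2 with control library 1, is above the same-numbered values of 0.109. This check does not show that the numbers are pairs. The main fit therefore ignored them, and the replicate block was an alternative only. Alternatives were a pseudocount of 0.1, no filter, at least 10 reads in every library, rescaling by the median of ratios, voom on recovered reads, the replicate block, and each library left out. Combinations of voom or the pseudocount of 0.1 with no filter were added after seeing the data.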

Additional observations from a re-analysis of the deposited data

How the results depend on the processing

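Over all tested genes, 660 were called, 232 higher and 428 lower. The number higher was 141 without a filter on low values, 352 with the replicate block and 491 with the block and rescaling, and after rescaling alone 343 were higher and 326 lower (51.3% of calls higher, beside 35.2%). With the replicate block the same members were called, and among the 16 partner genes of the naming rule it changed the calls of *Dusp4*, *Pdgfra* and *Smad7* only, with 12 partner genes called in all, *Furin* among them. Leaving out 1 library gave 8 to 1278 calls (1 to 513 higher, 7 to 765 lower), 0 to 4 members and 0 to 17 partner genes. The lowest counts came without control library 2 (8), knockout library 1 (30) and knockout library 2 (63), and the highest without control library 3. Without a filter 1 member was called, as *Hbegf* (1.45) and *Ereg* (-1.42) no longer passed. *Hbegf* at 2.06 and *Ereg* at -2.54 also did not pass with voom, with or without the filter, nor did *Ereg* at -1.36 after rescaling. *Pdgfa* passed at 0.53 with at least 10 reads in every library, at 0.60 after rescaling, and with voom at 1.41 with or without the filter. *Areg* could not be fitted with at least 10 reads in every library, since knockout library 2 had 6. *Pdgfb* turned to -0.001 with a pseudocount of 0.1, with or without the filter. Over the fits without 1 library, log2 fold changes ranged from 0.465 to 0.613 for *Pdgfa*, -0.056 to 0.101 for *Pdgfb*, -0.033 to 0.213 for *Tgfb1*, 1.152 to 1.8 for *Hbegf*, -1.995 to -1.498 for *Areg*, -1.795 to -1.174 for *Ereg*, -0.564 to 0.01 for *Igf1* and -0.166 to 0.388 for *Inhba*. Of 184 values recomputed, 129 kept direction and call or moved little, 23 moved further, 18 lost a call, 5 gained one and 9 turned direction. The causes were not tested. *Tgfa*, and *Areg* in the knockout libraries, rest on at most 39 and 21 reads, which limits their precision.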

Other observations

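Further marker lists gave these values. Neutrophil markers were lower for 2 of 3 tested (1 with voom and 1 with the replicate block), 1 of the 2 having reached the filter through the control group only, with sums of 41.2 to 72.6 FPKM in the knockout libraries and 159 to 172 FPKM in the controls, almost all from *S100a8* (52.9, 39.9 and 70.5 against 171, 156 and 156 FPKM), a calcium-binding protein that activated macrophages also make. Of the small peritoneal macrophage and monocyte markers, 1 of 5 tested was lower, *Irf4* (0 with voom), and the sums of 542 to 1205 and 944 to 2634 FPKM overlapped. T cell markers summed to 0.849 to 1.53 and 0.996 to 3.25 FPKM, and eosinophil markers to 0.231 to 0.524 and 0.713 to 1.25 FPKM. Platelet markers ranged from 1.43 to 18.9 FPKM in the knockout libraries and from 1.08 to 59.2 FPKM in the controls. *S100a8* and *Irf4* were chosen after their values were seen.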
